A study of Mus musculus with 6 samples.

Results

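Iron and heme handling was followed through a list of 10 genes in macrophages that had been sorted by their CX3CR1 level from ear skin of young mice. The list holds importers of iron (Tfrc, Slc11a1, Slc11a2), the ferritin chains that store it (Fth1, Ftl1), the iron exporter and a copper oxidase that helps it (Slc40a1, Cp), and enzymes of heme breakdown (Hmox1, Blvrb). Its last member, Hpgd, encodes the dehydrogenase that inactivates prostaglandins and is no iron gene by its textbook function. Each gene was read from the brightest probe set, a group of array probes for a transcript, among those that carry its symbol alone. Under that rule 9 of the 10 genes were measured, out of 22180 genes in all, and all 9 were bright enough to be tested, with 15529 genes tested in total. Genes whose mean log2 signal lay below 4.335, the 30th percentile, counted as dim and were left out of the tests. Ftl1, the ferritin light chain, lies on 6 probe sets that each name further genes as well, so that no level is given for it.

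The mice were C57Bl/6 animals aged 2 weeks of the genotype Cx3cr1+/gfp, in which green fluorescent protein is expressed from the Cx3cr1 locus and the other copy of this fractalkine receptor gene is intact. All groups share this genotype, strain and age, and the labels name no treatment. The 3 sorted subsets, CX3CR1low, CX3CR1int (intermediate) and CX3CR1high, had 2 samples each, and every sample pooled 4 mice, with 2 independent litters behind the replicates. Values are log2 signals, on which a difference of 1 is a 2-fold change. With 2 arrays for each subset, their small number limits the precision.

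Macrophages take up iron bound to transferrin through the transferrin receptor, and iron within heme by engulfing aged red cells or through the hemoglobin scavenger CD163. Heme oxygenase opens the heme ring and frees iron, which ferritin stores and ferroportin, the product of Slc40a1, releases. Iron regulatory proteins bind elements in these transcripts: in iron-poor cells they protect the Tfrc transcript from decay and block translation of ferritin and of ferroportin, so that ferritin protein can change with no change of its transcript. The arrays measured transcripts only.

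Cx3cr1 itself was highest in the cells sorted as CX3CR1high, with log2 signals of 10.55 and 9.51. It was 5.87 and 7.01 in the CX3CR1low and 7.05 and 6.84 in the CX3CR1int samples, so that these 2 subsets overlapped. All 10 macrophage markers were above the dim level, and their mean per sample ranged from 10.43 to 10.60. Of 12 erythroid markers 4 were measured, no globin gene among them, and 3 of these 4 were dim, while Slc4a1, the band 3 anion exchanger of red cells, lay between 5.07 and 5.48. Markers of keratinocytes, fibroblasts and mast cells, and of melanocytes and Schwann cells, had their highest means in CX3CR1low samples. The mean of 14 measured keratinocyte markers of 15 was 6.90 and 7.48 in the CX3CR1low, 6.39 and 6.68 in the CX3CR1int, and 6.40 and 6.55 in the CX3CR1high samples. That of 12 fibroblast markers was 7.30 and 7.87, 7.01 and 7.13, and 6.76 and 6.81 in the same order, and that of 8 mast cell markers 5.65 and 5.39, 5.10 and 5.11, and 4.35 and 4.29. Of the mast cell markers Ms4a2 and Fcer1a were dim, as was no keratinocyte or fibroblast marker. The mean of 7 Langerhans and dendritic cell markers ran the other way, at 5.32 and 5.35, 5.52 and 5.54, and 5.81 in both CX3CR1high samples, none of the 7 being dim. That of 8 monocyte and neutrophil markers, 2 of them dim, was 4.54 and 5.39, 4.89 and 5.59, and 4.55 and 4.84, higher in replicate 2 of each subset. For 6 melanocyte and Schwann cell markers, 1 of them dim, the mean was 4.85 and 5.27, 4.79 and 4.80, and 4.57 and 4.70. For 8 endothelial markers, 3 of them dim, it was 4.82 and 5.08, 4.63 and 4.77, and 4.83 and 4.57. The endothelial means of CX3CR1low and CX3CR1high samples overlapped. Members that were lower in CX3CR1high than in CX3CR1low samples shared that direction with the keratinocyte, fibroblast, mast cell, and melanocyte and Schwann cell marker means. Within the CX3CR1low subset Tfrc and Cp were lower in replicate 2. There the keratinocyte, fibroblast, and melanocyte and Schwann cell means were higher, and the mast cell mean was lower. The part of other cells in the members' differences was not tested beyond the covariate fit given for Slc40a1. In such bulk samples fewer cells of a type and less RNA per cell cannot be told apart. The transcript Xist of the inactive X chromosome was between 7.39 and 7.97 in replicates 1 and between 10.99 and 11.39 in replicates 2, so that the replicates of a subset differed in sex composition.

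No member passed the test in any comparison of subsets, where a gene was called at an adjusted p below 0.05 in a limma fit over all genes tested. The largest difference was that of Tfrc, 1.95-fold lower in CX3CR1high than in CX3CR1low samples, followed there by Slc40a1 (1.77-fold lower) and Cp (1.58-fold lower). Slc11a1 had its lowest values in CX3CR1int samples, 1.70-fold below CX3CR1high and 1.58-fold below CX3CR1low. Fth1 and Hmox1 varied by 0.09 and 0.10 over all 6 samples. Between CX3CR1high and CX3CR1low samples, the fit called 0 of 9 members against 0.399% of all genes tested, and 3 members (Tfrc, Cp and Hpgd) against 9.65% of all genes had an unadjusted p below 0.05. Between CX3CR1high and CX3CR1int samples 0 of 9 were called against 0.142% of all genes, and 2 (Slc11a1 and Cp) against 7.89% had an unadjusted p below 0.05. Between CX3CR1int and CX3CR1low samples 0 of 9 were called against 0.00644%, and 1 (Slc11a1) against 4.89% had an unadjusted p below 0.05. An F-test over the 3 subset means also called 0 of 9, against 0.187% of all genes, and 2 members (Slc11a1 and Tfrc) against 8.32% had an unadjusted p below 0.05. The comparisons share samples and are not independent of one another.

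**Figure D1:**
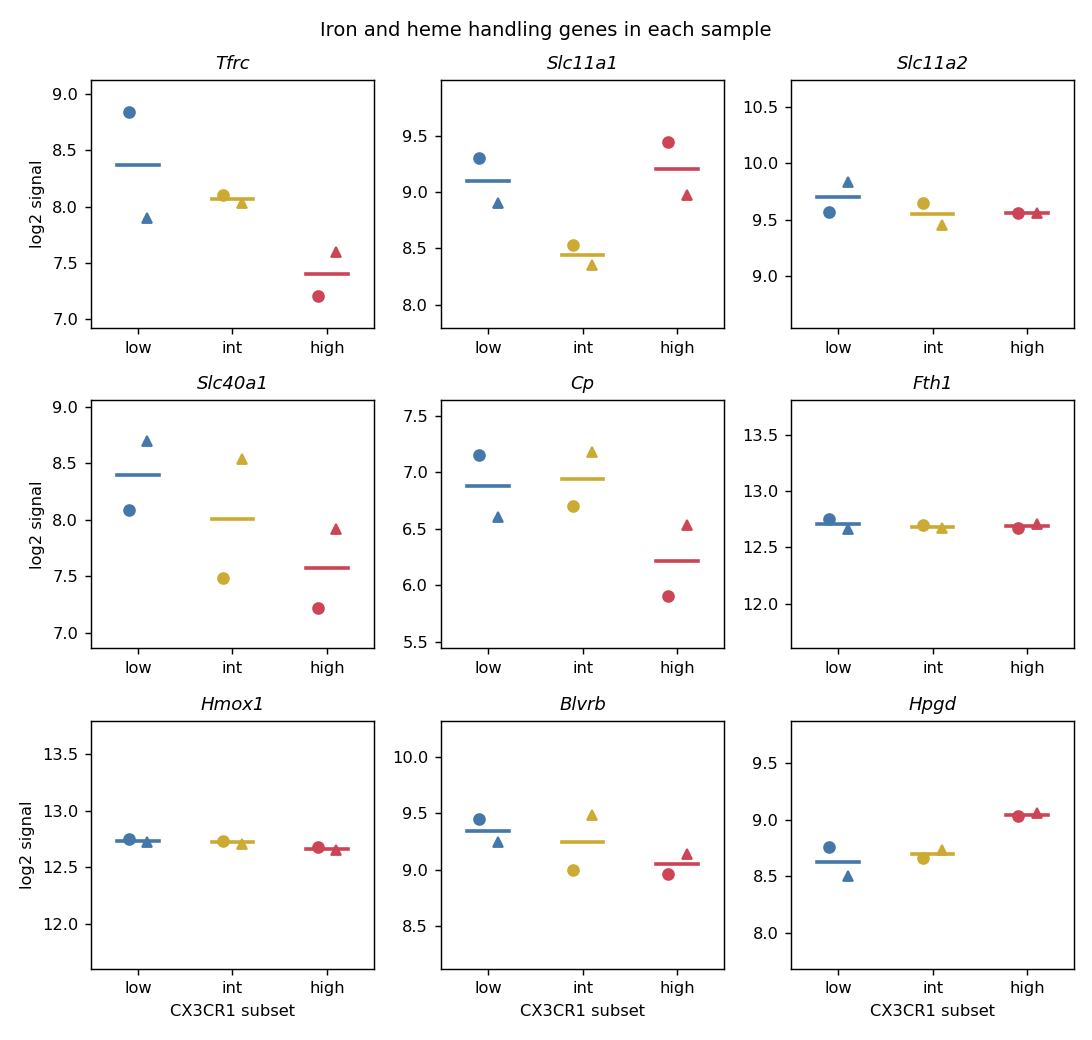
Log2 signal of the 9 measured genes in each sample, by CX3CR1 subset; circles are replicates 1, triangles replicates 2, horizontal bars the mean of both, and every panel spans the same height. Tfrc and Slc40a1 have their lowest means in CX3CR1high samples, Slc11a1 in CX3CR1int samples, and Fth1 and Hmox1 stay within 0.10.

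Tfrc encodes the transferrin receptor, the main port of iron entry of dividing cells. The log2 signal of Tfrc was 8.84 and 7.90 in the CX3CR1low, 8.10 and 8.03 in the CX3CR1int, and 7.21 and 7.60 in the CX3CR1high samples. Both CX3CR1high samples lay below the other 4, by 0.30 for the nearest pair, while the CX3CR1int samples lay between the CX3CR1low samples. The CX3CR1low replicate 1 was the highest, and lay further than that from the next value. The difference of CX3CR1high from CX3CR1low was -0.965 ± 0.29 (SE, n = 2 per subset), with a 95% interval of -1.63 to -0.30 and an adjusted p of 0.293. Against CX3CR1int it was -0.66 ± 0.29 (SE, adjusted p = 0.633). The first of these was -0.495 without the CX3CR1low replicate 1 and -1.435 without the CX3CR1low replicate 2. Cell cycle genes ran the other way between these subsets. All 21 tested were higher in CX3CR1high than in CX3CR1low samples, with a median of 0.655 against 0.005 over all genes tested, and none was called. Among them were the spindle gene Nusap1 (0.995, adjusted p = 0.151) and the mitotic motor gene Kif11 (1.105, adjusted p = 0.11), which passed in the fit with the replicate number as a block (adjusted p = 0.0427).

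Slc11a1 encodes NRAMP1, a metal transporter of the phagosome membrane, whose activity in these C57Bl/6 cells was not measured. Signals of Slc11a1 were 9.30 and 8.90 in the CX3CR1low, 8.53 and 8.35 in the CX3CR1int, and 9.44 and 8.97 in the CX3CR1high samples. Both CX3CR1int samples were below the other 4, whereas the CX3CR1low and CX3CR1high values overlapped. CX3CR1high exceeded CX3CR1int by 0.765 ± 0.21 (SE, 95% interval 0.28 to 1.25, adjusted p = 0.378), and CX3CR1int differed from CX3CR1low by -0.66 ± 0.21 (SE, adjusted p = 0.919). The ends of the CX3CR1 range differed by 0.105 ± 0.21 (SE, adjusted p = 0.929). Replicate 2 was below replicate 1 in every subset, by 0.40, 0.18 and 0.47 in CX3CR1low, CX3CR1int and CX3CR1high cells. Slc11a2 encodes DMT1, the related transporter of endosomes that moves iron freed from transferrin into the cytosol. Its signal was 9.57 and 9.83 in the CX3CR1low, 9.65 and 9.45 in the CX3CR1int, and 9.56 in both CX3CR1high samples. All 6 values lay within 0.38, and the 95% interval for CX3CR1high against CX3CR1int, around 0.01, ran from -0.35 to 0.37.

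Fth1, the ferritin heavy chain that oxidises iron for storage, was at 12.75 and 12.66 in the CX3CR1low, 12.70 and 12.67 in the CX3CR1int, and 12.67 and 12.71 in the CX3CR1high samples. The values of the subsets overlapped in every comparison. CX3CR1high differed from CX3CR1low by -0.015 ± 0.09 (SE, 95% interval -0.22 to 0.19, adjusted p = 0.976). The highest of these signals lay 0.36 below the highest of any gene on the 6 arrays, and whether the scale flattens differences so near its top was not tested.

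Slc40a1 encodes ferroportin, the exporter through which macrophages return iron to the blood. On the log2 scale Slc40a1 was at 8.09 and 8.70 in the CX3CR1low, 7.48 and 8.54 in the CX3CR1int, and 7.22 and 7.92 in the CX3CR1high samples. The CX3CR1high samples lay below both CX3CR1low samples, and the CX3CR1int samples overlapped with both. Within each replicate number Slc40a1 was lower from CX3CR1low to CX3CR1int to CX3CR1high cells. The difference of CX3CR1high from CX3CR1low was -0.825 ± 0.37 (SE, 95% interval -1.67 to 0.02, adjusted p = 0.528), and it ranged from -1.175 without the CX3CR1high replicate 2 to -0.475 without the CX3CR1high replicate 1. With the replicate number as a block its SE was 0.185 and the adjusted p 0.0981, still not a call. Replicate 2 exceeded replicate 1 in each subset, by 0.61, 1.06 and 0.70 in CX3CR1low, CX3CR1int and CX3CR1high cells, and the steps between neighbouring subset means were 0.385 and 0.44. With the mean of keratinocyte and fibroblast markers as a covariate the Slc40a1 difference turned to 0.451 (adjusted p = 0.954). Tfrc and Cp kept their sign in that fit, at -1.981 and -0.956, though its covariate held no mast cell markers. The covariate was itself higher in replicate 2 of each subset, so that its effect and that of the replicate number cannot be told apart. It was also higher in both CX3CR1low samples than in all other samples, and so overlaps with the comparison that it adjusts.

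Cp encodes ceruloplasmin, the copper oxidase that readies exported iron for binding to transferrin. Its log2 signal was 7.15 and 6.60 in the CX3CR1low, 6.70 and 7.18 in the CX3CR1int, and 5.90 and 6.53 in the CX3CR1high samples. Both CX3CR1high samples were below the other 4, by as little as 0.07 for the nearest pair, and the CX3CR1low and CX3CR1int samples overlapped. CX3CR1high differed from CX3CR1low by -0.66 ± 0.28 (SE, adjusted p = 0.508) and from CX3CR1int by -0.725 ± 0.28 (SE, adjusted p = 0.564). With single replicates left out the first ranged from -0.975 to -0.345 and the second from -1.04 to -0.41, the smaller size in both without the CX3CR1high replicate 1.

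The 3 members with the smallest F-test p were Slc11a1, Tfrc and Cp, and the 100 bases before their annotated starts are shown for that reason. The sequences are RefSeq's of build GRCm38.p6, plus strand, 5′ to 3′, and for Tfrc and Cp, with 2 annotated starts each, the one further downstream was taken. Capitals mark matches, on either strand, to TATAAA, to GGGCGG, the core of a GC box, or to TGANNNNGC. The last is a loose form of the core of the antioxidant response element bound by NRF2.
Slc11a1 (chr1:74375103-74375202): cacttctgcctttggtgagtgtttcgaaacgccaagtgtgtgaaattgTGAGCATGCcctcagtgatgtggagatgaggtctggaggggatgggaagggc
Tfrc (chr16:32609022-32609121): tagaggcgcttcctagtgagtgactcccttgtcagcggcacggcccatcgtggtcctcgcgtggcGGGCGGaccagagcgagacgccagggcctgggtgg
Cp (chr3:19957149-19957248): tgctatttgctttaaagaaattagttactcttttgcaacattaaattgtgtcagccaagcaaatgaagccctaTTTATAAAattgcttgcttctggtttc
Of the windows shown each held a different motif, while the windows before the upstream starts of Tfrc and Cp held no match to any of the 3. Slc11a1 had TGANNNNGC from 52 bases before its start, as do 15.9% of the 32851 windows of the same length in the table. Tfrc had GGGCGG from 35 bases before its start, a motif of 24.7% of windows. Cp had TATAAA from 25 bases before its start, overlapping a match on the other strand, a motif of 5.56% of windows. The G and C content was 53% for Slc11a1, 69% for Tfrc and 32% for Cp. A match of letters is a description and shows no binding.

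Hmox1 encodes heme oxygenase 1, the inducible enzyme that opens the heme ring. The values of Hmox1 were 12.75 and 12.72 in the CX3CR1low, 12.73 and 12.71 in the CX3CR1int, and 12.68 and 12.65 in the CX3CR1high samples. The CX3CR1high samples were the lowest, by 0.03 for the nearest pair. The difference from CX3CR1low was -0.07 ± 0.09 (SE, 95% interval -0.27 to 0.13, adjusted p = 0.866), and like that of Fth1 its highest signal lay 0.36 below the top of the scale. Blvrb, a biliverdin reductase gene, was at 9.45 and 9.24 in the CX3CR1low, 9.0 and 9.48 in the CX3CR1int, and 8.96 and 9.14 in the CX3CR1high samples. Its CX3CR1int samples spanned nearly the whole range of 0.52, and CX3CR1high differed from CX3CR1low by -0.295 ± 0.20 (SE, adjusted p = 0.703). The constitutive heme oxygenase gene Hmox2 (-0.255, adjusted p = 0.721) and the other biliverdin reductase gene Blvra (-0.105, adjusted p = 0.91) were not called either.

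Hpgd, the prostaglandin dehydrogenase gene, had log2 signals of 8.76 and 8.50 in the CX3CR1low, 8.66 and 8.73 in the CX3CR1int, and 9.03 and 9.06 in the CX3CR1high samples. Both CX3CR1high samples were above the other 4, and the remaining subsets overlapped. CX3CR1high exceeded CX3CR1low by 0.415 ± 0.16 (SE, 95% interval 0.04 to 0.79, adjusted p = 0.459) and CX3CR1int by 0.35 ± 0.16 (SE, adjusted p = 0.645). Of 11 tested genes of prostaglandin synthesis and removal, 6 were higher and 5 lower in CX3CR1high than in CX3CR1low samples, with a median of 0.055, and none was called. Ptgs2, the inducible cyclooxygenase that starts the synthesis, was at 8.75 and 9.84 in the CX3CR1low, 9.62 and 10.08 in the CX3CR1int, and 10.38 and 10.73 in the CX3CR1high samples. It was 2.39-fold higher in CX3CR1high than in CX3CR1low samples (1.26 ± 0.32, SE, adjusted p = 0.207), and the fit with the replicate block called it (adjusted p = 0.0245). The prostaglandin importer gene Slco2a1 was lowest in CX3CR1int samples (5.69 and 5.80) and 0.54 lower in CX3CR1high than in CX3CR1low samples (adjusted p = 0.417).

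**Figure D2:**
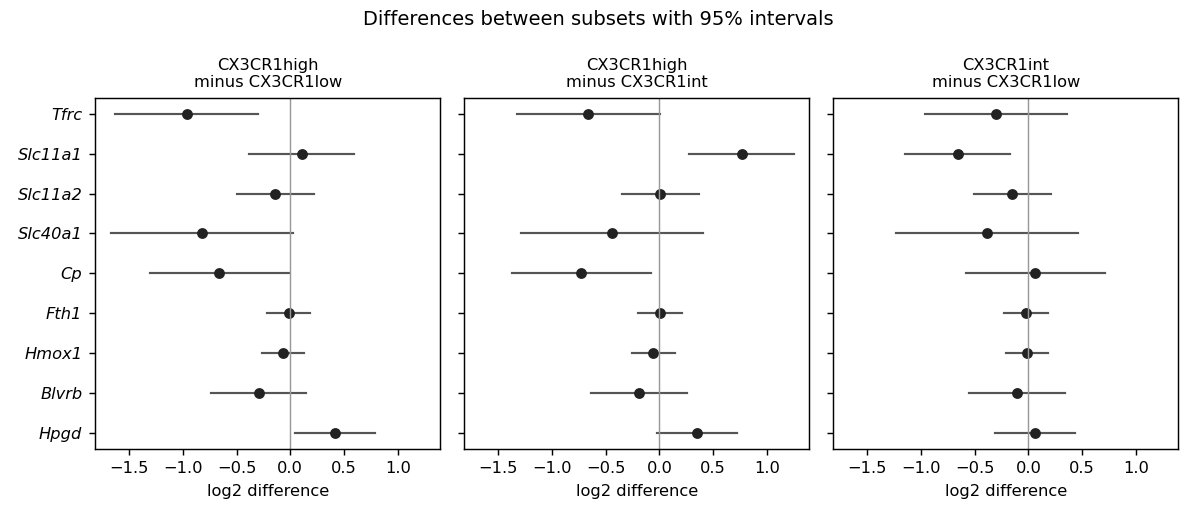
Log2 difference of each measured gene in the 3 comparisons of subsets, with 95% intervals from the fit across all genes. The intervals of Tfrc, Cp and Hpgd for CX3CR1high against CX3CR1low leave out 0, as do those of Cp for CX3CR1high against CX3CR1int and of Slc11a1 in both comparisons with CX3CR1int, yet no gene passed the adjustment over all genes tested.

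As a group the members leaned to lower values in CX3CR1high than in CX3CR1low samples. Of the 9, 7 were lower and 2 higher, and the median difference was -0.14 against 0.005 over all genes tested. Of these 9 genes 7 did not overlap between the subsets, Slc11a1 and Fth1 being the exceptions, against 38.3% of all genes. Among the 7, the difference was only -0.07 for Hmox1 and -0.14 for Slc11a2, whose nearest samples lay 0.01 apart. The members were chosen with earlier results of these data known, so that such shares are no test of the group. Between CX3CR1high and CX3CR1int samples 5 of 9 did not overlap (Tfrc, Slc11a1, Cp, Hmox1 and Hpgd) against 36.8% of all genes, with a median of -0.055 against 0. Between CX3CR1int and CX3CR1low samples 1 of 9 did not overlap, Slc11a1, against 31.4% of all genes, with a median of -0.105 against 0.01. The importer Tfrc and the exporter Slc40a1 were both among the lower genes. The sign of Fth1 turned when the arrays were quantile-normalised again (0.009), and those of Slc40a1, Slc11a1 and Slc11a2 turned with the covariate.

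The other genes of the pathway were taken from lists of 78 genes, of which 68 were measured and 64 tested. None was called in any comparison, and between CX3CR1high and CX3CR1low samples 8 had an unadjusted p below 0.05, where 0.399% of all genes tested were called and 9.65% had such a p. In that comparison 25 were higher and 39 lower, with a median of -0.065. The nearest to a call was Cd163, the scavenger receptor for hemoglobin bound to haptoglobin. Its log2 signal was 10.94 in both CX3CR1low samples, 10.79 and 10.92 in the CX3CR1int, and 9.79 and 10.28 in the CX3CR1high samples. Both CX3CR1high samples were the lowest, 1.87-fold below CX3CR1low (-0.905 ± 0.17, SE, adjusted p = 0.0829) and 1.77-fold below CX3CR1int (-0.82 ± 0.17, SE, adjusted p = 0.188). With the replicate block Cd163 was called against CX3CR1low (adjusted p = 0.0305), the only pathway gene that was.

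Among 12 tested genes of iron and heme uptake, 3 were higher and 9 lower in CX3CR1high than in CX3CR1low samples. Lrp1, which takes up heme bound to hemopexin among many other ligands, was 0.58 higher (8.83 and 8.94 against 9.43 and 9.50, adjusted p = 0.259), opposite to Cd163. Of 9 tested NRF2 response genes, 6 were higher and 3 lower, with a median of 0.175. Slc7a11, the cystine importer gene that feeds glutathione synthesis, was at 8.27 and 8.68 in the CX3CR1low, 9.12 and 8.46 in the CX3CR1int, and 9.58 and 9.81 in the CX3CR1high samples. Its difference of 1.22 ± 0.24 (SE) between the ends of the range had an adjusted p of 0.0989. Nqo1, a quinone reductase, was 0.67 higher (adjusted p = 0.378), with a CX3CR1low mean of 4.115 that lay under the dim level of 4.335, while Hmox1, known as a target of NRF2 too, was 0.07 lower.

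Among 13 regulators, 2 were higher and 11 lower, with a median of -0.195. The oxygen-sensing factor gene Epas1 was 0.535 lower (adjusted p = 0.441) and the clock repressor gene Nr1d1 0.57 lower (adjusted p = 0.641). Spic, the factor of iron-recycling macrophages of the spleen, differed by 0.085 (adjusted p = 0.92) and Bach1, the heme-sensing repressor of Hmox1, by -0.21 (adjusted p = 0.794), both chosen after their values were seen. Of 10 genes of mitochondrial iron and iron-sulfur clusters 5 were higher and 5 lower. The scaffold gene Iscu was 0.535 higher (adjusted p = 0.427) and Isca2, a carrier of clusters, 0.175 higher (adjusted p = 0.854). Of 7 genes of heme synthesis 3 were higher and 4 lower, with Alas1, the first enzyme of the route, 0.325 higher (adjusted p = 0.631) and Ppox, an oxidase late in it, 0.275 lower (adjusted p = 0.671).

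Of 6 tested genes listed under iron and heme export, not all of them exporters, 3 were higher and 3 lower, with a median of 0.04. The transporter gene Flvcr2 was 0.37 lower (adjusted p = 0.579). Hamp, the gene of hepcidin, which binds ferroportin, differed by 0.985 (adjusted p = 0.822), with a CX3CR1low mean of 3.76, under the dim level. Heph, chosen after its values were seen, encodes hephaestin, the oxidase of iron export in the gut, and differed by 0.13 (adjusted p = 0.904). Of 5 genes of storage and iron chaperones 3 were higher and 2 lower, among them Nubp1, which helps to assemble iron-sulfur clusters in the cytosol (0.325, adjusted p = 0.658), and Ftmt, the mitochondrial ferritin (0.26, adjusted p = 0.721), whose CX3CR1low mean of 4.32 was under the dim level too.

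**Figure D3:**
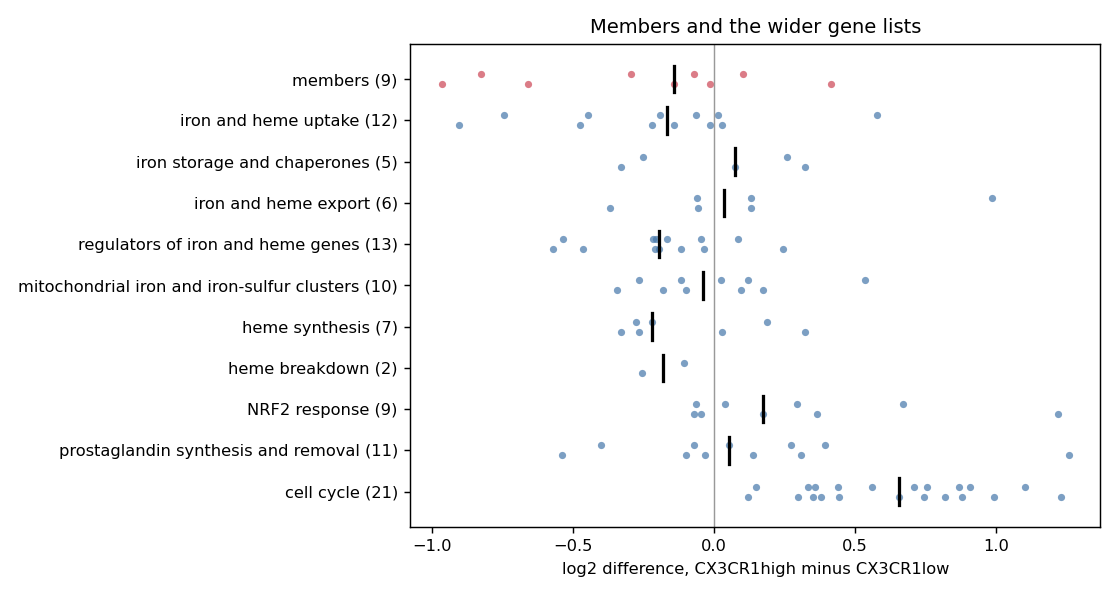
Log2 difference of CX3CR1high from CX3CR1low samples for each tested gene of the members and of the wider lists, with the number of genes in parentheses; each point is a gene and each black bar the median of its list. The members centre on -0.14, iron and heme uptake on -0.165 and cell cycle genes on 0.655, and no gene drawn here was called.

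The patterns most like those of Slc11a1, Tfrc and Cp were sought among 13693 other genes, as the smallest root mean square difference over the 6 samples after removal of each gene's mean. For Tfrc, whose own values deviated from their mean by 0.499 in that measure, the nearest was Vsig4, a complement receptor of resident macrophages, at 0.095, followed by the collagen hydroxylase gene P3h2 (0.117) and Colca2 (0.157). For Cp, with a deviation of 0.43, they were the scavenger collectin gene Colec12 (0.065), Prelid2 (0.087) and Npl, a lyase of sialic acid (0.095). For Slc11a1, with 0.386, they were the kinase gene Mapk13 (0.122), Atxn1l (0.129) and Cnih2 (0.147). With 6 samples and so many genes compared, close matches are a description of these arrays.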

How the data were processed

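RNA of sorted cells was amplified with a whole-transcriptome kit and hybridised to 1 Affymetrix array per sample. The deposited values are log2 signals per probe set, which the authors made by RMA; the submitters' processing notes name Affymetrix Expression Console 1.4, and the genome build is not given in the sources used here. Of 34390 probe sets, 23521 carried 1 symbol, 1814 several and 9055 none. The brightest with 1 symbol stood for a gene, and genes whose mean lay below the 30th percentile (4.335, the dim level) were left out. All 9 members' identifiers were found in the reference table under the same symbol.

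All 6 samples entered a limma 3.58.1 fit in R 4.3.3 with a mean per subset and a variance prior that follows intensity. Its moderated tests were two-sided, with p-values adjusted by Benjamini-Hochberg across the 15529 genes tested, and an adjusted p below 0.05 counted as a call. Residual degrees of freedom were 3, to which the prior added 5.77. The fit was tested on simulated data. The labels state 2 independent litters without tying them to replicate numbers. Deviations of same-numbered samples correlated at 0.146, 0.136 and 0.178. The main fit took no account of the replicate number, and a block on it was fitted as an alternative.

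The members and lists were chosen with earlier results of these data known. Of each list, called genes (at most 6) or otherwise the 2 with the smallest F-test p are named. For the 3 members with the smallest F-test p, the 3 genes of nearest pattern are named.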

Additional observations from a re-analysis of the deposited data

How the results depend on the processing

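The count of members called was 0 in every alternative and every comparison, the replicate block included, so that no call of a member depends on the settings tried. The smallest adjusted p of a member in any of them was 0.0974, for Tfrc between CX3CR1high and CX3CR1low cells without the CX3CR1low replicate 2. With the replicate block the standard error of the Slc40a1 difference between those subsets was 0.185 (adjusted p = 0.0981), and that of Slc11a1 between CX3CR1high and CX3CR1int cells 0.161 (adjusted p = 0.126). The counts over all genes moved more. Between CX3CR1high and CX3CR1low cells 62 genes were called, but 26 with no filter on dim genes, 154 with the replicate block, 6 with the covariate, 39 with only the 2 subsets compared, and 0 to 39 without a replicate. Between CX3CR1high and CX3CR1int cells 22 were called, but 0 with no filter, 4 without the intensity trend, 47 with the block, 2 after quantile normalisation again, 0 after median centring, 14 with only the 2 subsets, and 0 to 17 without a replicate. Between CX3CR1int and CX3CR1low cells 1 was called, 2 with the covariate, and 0 with no filter, without the trend, with the block, after median centring, with only the 2 subsets or without any replicate. The F-test called 29, but 14 with no filter, 79 with the block, 18 with the covariate, and 0 to 17 without a replicate. The cause of these shifts was not tested.

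Of 432 alternative values of the members' differences 404 did not change sign, 28 did, and none was called. With the covariate these were, for CX3CR1high against CX3CR1low, Slc40a1 (0.451), Slc11a1 (-0.52) and Slc11a2 (0.072), for CX3CR1high against CX3CR1int Fth1 (-0.018), and for CX3CR1int against CX3CR1low Slc40a1 (0.611), Slc11a2 (0.015), Cp (-0.166) and Hpgd (-0.138). Quantile normalisation again turned Fth1 against CX3CR1low (0.009) and Hmox1 against CX3CR1int (0.017) in CX3CR1high cells, and median centring turned Slc11a2 (-0.025) and Fth1 (-0.03) against CX3CR1int. Leaving out a replicate, where the lone sample of its subset is assumed to vary like the others, gave ranges across 0. For CX3CR1high against CX3CR1low these were -0.13 to 0.34 for Slc11a1 and -0.06 to 0.03 for Fth1. For CX3CR1high against CX3CR1int they were -0.97 to 0.09 for Slc40a1, -0.43 to 0.05 for Blvrb, -0.09 to 0.11 for Slc11a2 and -0.015 to 0.025 for Fth1. For CX3CR1int against CX3CR1low they were -0.915 to 0.145 for Slc40a1, -0.345 to 0.135 for Blvrb, -0.775 to 0.165 for Tfrc, -0.065 to 0.025 for Fth1, -0.21 to 0.34 for Cp and -0.065 to 0.195 for Hpgd. The lower values of Tfrc and Cp and the higher values of Hpgd in CX3CR1high than in both other subsets kept their sign in all alternatives. So did the lower values of Slc11a1 in CX3CR1int, though many of the alternatives could not move these differences.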

Other observations

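Hamp, the gene of hepcidin, the peptide that binds ferroportin and has it degraded, had the widest spread among the tested pathway genes. Its log2 signal was 2.18 and 5.34 in the CX3CR1low, 5.38 and 6.27 in the CX3CR1int, and 3.58 and 5.91 in the CX3CR1high samples. Replicate 2 was above replicate 1 in every subset, as it was for Slc40a1. CX3CR1high differed from CX3CR1low by 0.985 ± 0.97 (SE, adjusted p = 0.822), and the lowest values lay under the dim level of 4.335.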
